A study of Mus musculus with 4 samples.

Results

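Vimentin, the cytoplasmic actins and abundant actin-binding proteins were followed in mouse erythroleukemia (MEL) cells before and after erythroid-like differentiation. The set held 10 genes (Vim, Actb, Actg1, Cfl1, Pfn1, Tmsb4x, Tmsb10, Coro1a, Lcp1 and Arpc1b), taken by symbol from the 47935 loci of the deposited expression table. All 10 had 1 row each, and the row of Actg1 was shared with the symbols Gm23419 and Mir6935. The samples were 2 of uninduced cells and 2 of cells induced with 1.5% dimethyl sulfoxide (DMSO), numbered 1 and 2 in each group. How long the cells were exposed is not stated in the sources. MEL is a single transformed line arrested at an early erythroid stage, and no genotype or other treatment was named for either group. The question was how the levels of these transcripts compare between uninduced and induced cells.

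Vimentin forms intermediate filaments, which give mesenchymal and many blood cells their mechanical stability and are lost as red cell precursors mature. Actin exists as free monomers and as filaments, and cells steer between both states with proteins that bind monomers, start branches, bundle filaments or take them apart. In the mature red cell most of this motile machinery is gone, and short actin filaments are kept as the nodes of the spectrin membrane skeleton.

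Levels are in FPKM, a fragment number corrected for transcript length and library size, so that genes of different length can be set side by side. FPKM is relative to a library's total, and the depth itself is unknown. The step of the lowest values in single-exon genes of 380 to 520 bases put uninduced 1, induced 1 and induced 2 at 0.926, 0.682 and 0.759 of the depth of uninduced 2. Of 10 erythroid markers checked, 9 were above 1 FPKM in every sample, and Slc4a1, the red cell anion exchanger, was at 0.49 and 0.56 FPKM uninduced and at 82.8 and 186 FPKM induced. By limma 8 of the 10 rose after induction, beside 11.5% of all loci tested, while Gata1 and Epor did not pass. Slc4a1 reached the 1 FPKM needed for testing only in induced samples, which fixed its direction beforehand. The 10 summed to 1460 and 1730 FPKM uninduced and to 59299.5 and 112804 FPKM induced, most of it from the globin genes Hba-a1 and Hbb-bs. This rise ran alongside every difference given below, and its part in them was not tested. None of 10 fibroblast markers reached 1 FPKM in any sample, with Dcn, Lum and Acta2 listed at 0 throughout. Whether the replicates came from separate cultures was not stated, so each p-value rests on the spread of these 4 samples alone, and that spread may be technical.

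Of the 10 genes, 9 had at least 1 FPKM in at least 2 samples and were tested. Vim, Lcp1 and Coro1a fell after induction and Tmsb10 rose, by limma with a Benjamini-Hochberg adjusted p under 0.05 over all 12890 loci tested. Actb, Actg1, Cfl1, Pfn1 and Arpc1b had both induced values below both uninduced values but did not pass, with adjusted p from 0.0974 to 0.255. Tmsb4x was listed at 0 in every sample and could not be tested. Across all loci tested, 26.2% were called, 14.7% lower and 11.5% higher. Both induced values lay below both uninduced values for 34.7% of all loci and above them for 36.1%. Among the 9 tested genes, 8 had the first pattern and 1 had the second. Without the filter on low values 0 of the set passed in limma (1 higher and 3 lower at an unadjusted p under 0.05). With 1 sample left out, 2 passed without induced 1, both lower, and 0 without uninduced 1, uninduced 2 or induced 2 (0 to 1 higher and 3 to 4 lower unadjusted). The calls over all loci shrank too in those fits, to 0 to 180 higher and 14 to 306 lower. The median log2 change of the 9 genes was -0.61, beside 0.03 over all loci tested. Among the 1099 tested loci with a mean of at least 100 FPKM the median was -0.22 and 18% were called lower. Changes are on the log2(FPKM + 1) scale, induced minus uninduced, ± limma's standard error, and understate the change of low genes.

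**Figure D1:**
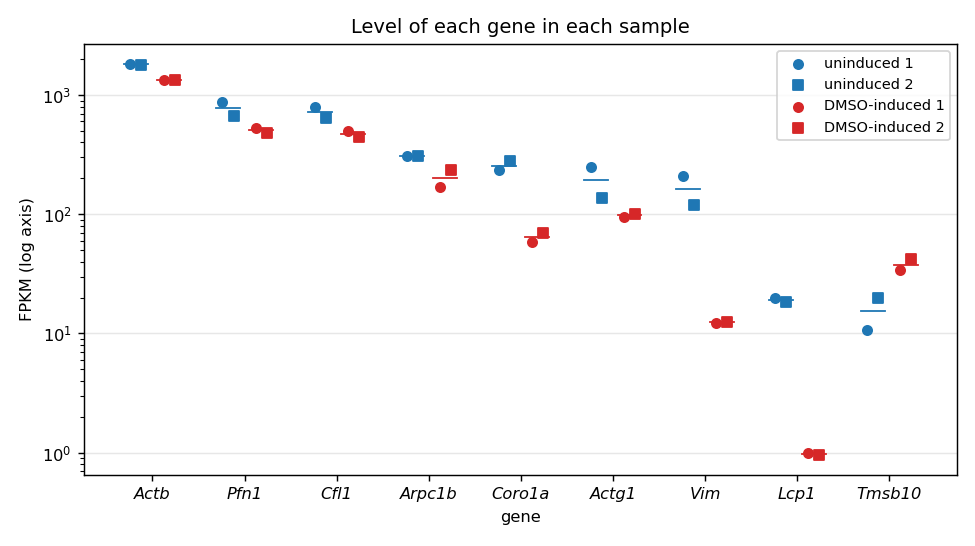
FPKM (log axis) of the 9 genes with values above 0 in each of the 4 samples, blue for uninduced and red for DMSO-induced, circles for replicate 1, squares for replicate 2, short lines for group means. The induced points lie below the uninduced points for 8 genes and above them for Tmsb10, and the widest gaps are those of Vim and Lcp1.

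Vim encodes vimentin (chromosome 2, 13573927 to 13582826 on GRCm38, GENCODE M21). It measured 208 FPKM in uninduced 1 and 120 FPKM in uninduced 2, against 12.3 and 12.6 FPKM in induced 1 and 2. The uninduced samples stood 1.73-fold apart, the induced samples lay close together, and the groups did not overlap. The mean went from 164 ± 61.9 to 12.4 ± 0.18 FPKM (SD, n = 2 each), 13.2-fold lower. The log2 change was -3.57 ± 0.30 (limma adjusted p = 0.00906). Only 0.768% of all loci tested had a lower change. By level, Vim ranked 607th and 969th among the 47935 loci in the uninduced samples and 5739th and 5650th in the induced ones. With 1 sample left out the log2 change ran from -3.96 to -3.18. The adjusted p was 0.0462 without induced 1, and Vim no longer passed without uninduced 1 (0.0562), uninduced 2 (0.0623) or induced 2 (0.0683).

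Other intermediate filament genes were low. Of 13 listed, 9 were too low to be tested and Plec shared its row with another gene. Des, the muscle filament protein desmin, had the highest mean of the 3 tested, at 4.26 ± 0.79 FPKM uninduced and 3.76 ± 0.23 FPKM induced (log2 difference -0.14, limma adjusted p = 0.669). Krt8, a keratin of simple epithelia, fell from 1.40 ± 0.10 to 0.13 ± 0.14 FPKM, and Gfap, the filament protein of astrocytes, rose from 0.91 ± 0.12 to 2.35 ± 0.24 FPKM. Krt8 reached 1 FPKM only in uninduced samples and Gfap only in induced samples. Each was thus tested only through the group where it was high, which fixed its direction beforehand. Vim was thus the one intermediate filament gene of this list above 100 FPKM in a sample, and only while the cells were uninduced.

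The loci whose pattern over the 4 samples lay nearest to that of Vim were Icam2, Fbp2, Oasl1, Cmtm7 and Thy1. Likeness was the Euclidean distance of centred log2(FPKM + 1) values over 4 samples, among 7144 loci with 1 symbol and a mean of at least 5 FPKM, with distances from 0.291 to 0.546. Icam2, an adhesion molecule of blood and endothelial cells, was at 22.8 and 16.3 FPKM uninduced and 0.84 and 1.01 FPKM induced. Thy1, a surface glycoprotein of thymocytes and fibroblasts, was at 15.9 and 13.9 FPKM uninduced and 0.03 and 0.09 FPKM induced. Values near or below the added 1 FPKM are compressed on this scale, so likeness to Vim here is not likeness in fold change.

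Actb, the beta-actin gene (chromosome 5, 142903115 to 142906754), had the highest level in every sample among the 9 tested genes of the set. It measured 1838 and 1783 FPKM in uninduced 1 and 2 and 1341 and 1349 FPKM in induced 1 and 2. The values within a group differed by little and the groups did not overlap, yet the difference was small. The means were 1811 ± 38.3 and 1345 ± 5.78 FPKM, 1.35-fold lower in induced samples, and the log2 difference was -0.43 ± 0.26 (limma adjusted p = 0.255). Of all loci tested, 30.2% had a lower change. The loci nearest to Actb in pattern, by the same measure, were Avpi1, Cep78, Rbck1, Nup107 and Sumf2, with distances from 0.0135 to 0.0417. Their log2 differences ran from -0.46 to -0.42 and none of the 5 passed in limma. As loci picked for likeness to Actb in these same samples, they were bound to show similar differences.

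Actg1, the gamma-actin gene (chromosome 11, 120345690 to 120348542), measured 251 FPKM in uninduced 1, 137 FPKM in uninduced 2, and 95.6 and 100.3 FPKM in induced 1 and 2. Uninduced 1 stood apart from the other 3 samples, 1.84-fold above uninduced 2. The means were 194 ± 80.8 and 97.9 ± 3.30 FPKM, and the log2 difference of -0.91 ± 0.33 did not pass (limma adjusted p = 0.0974). Without uninduced 1 it was -0.48 and without uninduced 2 it was -1.35. The row also covers Gm23419 and Mir6935, so its value is not that of Actg1 alone. Both actin proteins have 375 residues, and their coding sequences match at 88.7% of 1128 bases, with a longest identical stretch of 62 bases. Reads inside such stretches can be assigned to either gene.

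Actb exceeded Actg1 by 7.32-fold and 13.04-fold in the uninduced samples and by 14.0-fold and 13.5-fold in the induced samples. Uninduced 1 had the low ratio and the other 3 samples were alike. The difference of 0.49 in the log2 ratio was only 0.08 without uninduced 1 (exact two-sided permutation p = 0.33, which a design of 2 against 2 cannot go below). Among the other actin genes, Acta2 and Actc1 were listed at 0 in every sample, and Actg2 and Actbl2 stayed at 0.23 FPKM or less.

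The stretch before the Actg1 start is shown because it was the one of those searched with a CArG box, the motif bound by serum response factor (SRF), a known activator of actin genes. RefSeq promoters (GRCm38.p6) were found for 9 of the 10 genes, all but Actb, and the 250 bases before each start were searched on both strands. The piece printed lies at chr11:120348543-120348677 on the minus strand, from 182 to 48 bases before the RefSeq start, and is free of annotated exons. Capitals mark the CArG box, from 90 to 81 bases before the start.

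Actg1: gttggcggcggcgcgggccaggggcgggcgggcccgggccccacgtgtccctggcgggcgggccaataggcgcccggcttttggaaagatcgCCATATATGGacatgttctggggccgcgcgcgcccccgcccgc

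Of 32851 RefSeq promoters, 1.47% held a CArG box in the same window. The motif GAGGAA, a core of sites bound by the myeloid factor PU.1 and other ETS proteins, was found only before Vim among the 9 genes, on both strands. It occurs in 23.3% of all promoters. AGATAA, a core of GATA factor sites, was in none of the windows of these 9 genes and is in 9.99% of all promoters. A match is a description of the letters and not evidence of binding. Srf itself was at 18.3 ± 3.76 FPKM uninduced and 10.4 ± 0.54 FPKM induced, with both induced values lower and a log2 difference of -0.75 ± 0.23 that did not pass (limma adjusted p = 0.0652). None of the 4 tested genes of the list for SRF and its cofactors passed in limma, and at an unadjusted p under 0.05 only Srf did, lower.

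Cofilin and profilin act on opposite sides of the actin cycle. Cfl1, non-muscle cofilin, severs old filaments (chromosome 19, 5490455 to 5495201). It measured 788 and 646 FPKM uninduced and 500 and 442 FPKM induced. Pfn1, profilin 1, loads monomers for growth at filament ends (chromosome 11, 70651850 to 70654644) and measured 875 and 672 FPKM uninduced and 527 and 483 FPKM induced. In both genes uninduced 1 was the highest sample and induced 2 the lowest, and the groups did not overlap. Means were 717 ± 100.2 and 471 ± 40.9 FPKM for Cfl1, and 774 ± 143 and 505 ± 30.9 FPKM for Pfn1. The log2 differences were -0.60 ± 0.24 for Cfl1 (limma adjusted p = 0.12) and -0.60 ± 0.25 for Pfn1 (adjusted p = 0.131).

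The balance between Cfl1 and Pfn1 was close to constant over the samples. The ratio of Cfl1 to Pfn1, added to the planned ratios, was 0.901 and 0.961 uninduced and 0.949 and 0.915 induced. Cfl1, Pfn1 and Tmsb10 together, with Tmsb4x counted as listed at 0, came to 80.1% and 69.7% of the summed actins in the uninduced samples and to 73.8% and 66.7% in the induced samples. The groups overlapped and the log2 ratio differed by -0.09 (exact two-sided permutation p = 0.667), a sign that turned without uninduced 1 (0.0089). Nearly all of the sum of Cfl1, Pfn1 and Tmsb10 came from Cfl1 and Pfn1, so this ratio says little about Tmsb10.

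Beta-thymosins are short peptides that hold actin monomers in reserve. Tmsb10, thymosin beta 10 (chromosome 6, 72957347 to 72958748), measured 10.7 and 19.9 FPKM uninduced and 33.8 and 41.7 FPKM induced. Both induced values lay above both uninduced ones, and the uninduced samples were 1.87-fold apart. The mean rose from 15.3 ± 6.53 to 37.7 ± 5.64 FPKM, 2.47-fold, with a log2 change of 1.30 ± 0.33 (limma adjusted p = 0.0452). Of all loci tested, 94.6% had a lower change. The call was near the threshold. It was lost without the filter on low values (adjusted p = 0.124), under median-of-ratios scaling (0.0567), a pseudocount of 0.1 (0.0523) and when any 1 of the 4 samples was left out (0.0831 to 0.212), and the log2 change ran from 0.88 without uninduced 1 to 1.72 without uninduced 2. Set against Actb in the same sample, a ratio also added to the planned ones, Tmsb10 came to 0.58% and 1.12% uninduced and 2.52% and 3.09% induced.

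Tmsb4x, thymosin beta 4 (chromosome X, 167207093 to 167209315), was listed at 0 in all 4 samples. An exact 0 in such a table can be a failed estimate. There were 68 loci with a 0 in a single sample while each of the other 3 samples had 5 FPKM or above. Among 19665 loci of single protein-coding genes, 5137 were listed at 0 in every sample. So no level and no ratio to Tmsb10 can be given. The coding sequences of both thymosins are printed to show how far apart the transcripts are. They are spliced sequences from GENCODE M21 transcripts, with stop codons, and capitals mark the bases that differ.

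Tmsb4x: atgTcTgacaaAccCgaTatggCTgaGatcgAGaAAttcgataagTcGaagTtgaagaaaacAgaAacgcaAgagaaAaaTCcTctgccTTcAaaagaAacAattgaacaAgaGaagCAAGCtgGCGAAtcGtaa

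Tmsb10: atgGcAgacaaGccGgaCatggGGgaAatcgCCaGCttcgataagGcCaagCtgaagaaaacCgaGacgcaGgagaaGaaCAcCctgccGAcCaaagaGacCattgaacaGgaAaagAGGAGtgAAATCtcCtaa

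Each encodes 44 residues in 135 bases with the stop codon. The pair matches at 95 bases, 70.4%, and no identical stretch is longer than 10 bases. Reads of the coding part are therefore separable between Tmsb10 and Tmsb4x by sequence.

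Coro1a encodes coronin 1A, an actin-binding protein of blood cells that works with the Arp2/3 complex (chromosome 7, 126699773 to 126707787). It measured 234 and 278 FPKM uninduced and 58.8 and 69.6 FPKM induced. Replicate 2 was the higher one in both groups, and the groups were far apart. The mean fell from 256 ± 31.6 to 64.2 ± 7.63 FPKM, 3.99-fold lower, with a log2 change of -1.98 ± 0.21 (limma adjusted p = 0.0126). Of all loci tested, 3.93% had a lower change. Coro1a no longer passed when any 1 sample was left out (adjusted p from 0.0533 to 0.0831), with log2 changes from -2.10 to -1.85.

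Lcp1 encodes L-plastin, the filament bundler of white blood cells (chromosome 14, 75131101 to 75230842). It measured 19.7 and 18.3 FPKM uninduced and 1.00 and 0.95 FPKM induced. Replicates of both groups agreed closely. The mean fell from 19.0 ± 1.00 to 0.98 ± 0.04 FPKM, 19.5-fold lower, the largest ratio of means among the 9 tested genes. The induced samples alone would not have met the filter of 1 FPKM in 2 samples. Lcp1 was thus tested through the group where it was high. The log2 change was -3.34 ± 0.20 (limma adjusted p = 0.00459). With the pseudocount of 0.1 in place of 1 it was -4.15, since the induced level is near the pseudocount. The adjusted p was 0.041 without induced 1, and Lcp1 no longer passed without uninduced 1 (0.0605), uninduced 2 (0.0811) or induced 2 (0.0548). The predicted genes Gm15628 and Gm15629 share the span of Lcp1, at no more than 0.32 FPKM. Upstream of Lcp1, the gene with the largest ratio of means, the stretch at chr14:75130882-75131100 on the plus strand, from 241 to 23 bases before the first RefSeq start, carried none of the 3 motifs searched and so has no capitals.

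Lcp1: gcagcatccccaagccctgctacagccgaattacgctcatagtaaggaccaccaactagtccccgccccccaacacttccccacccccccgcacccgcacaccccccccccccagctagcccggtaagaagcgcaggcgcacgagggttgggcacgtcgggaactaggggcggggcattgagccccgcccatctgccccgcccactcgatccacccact

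Arpc1b encodes a subunit of the Arp2/3 complex, which starts branches on actin filaments (chromosome 5, 145114215 to 145130705). It measured 305 and 307 FPKM uninduced and 170 and 234 FPKM induced. The uninduced samples were nearly equal, the induced ones 1.38-fold apart, and the groups did not overlap. The means were 306 ± 1.31 and 202 ± 45.2 FPKM, with a log2 difference of -0.61 ± 0.24 (limma adjusted p = 0.116). Its span also holds Pdap1, at 65.6 to 80.8 FPKM uninduced and 38.1 to 41.3 FPKM induced.

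**Figure D2:**
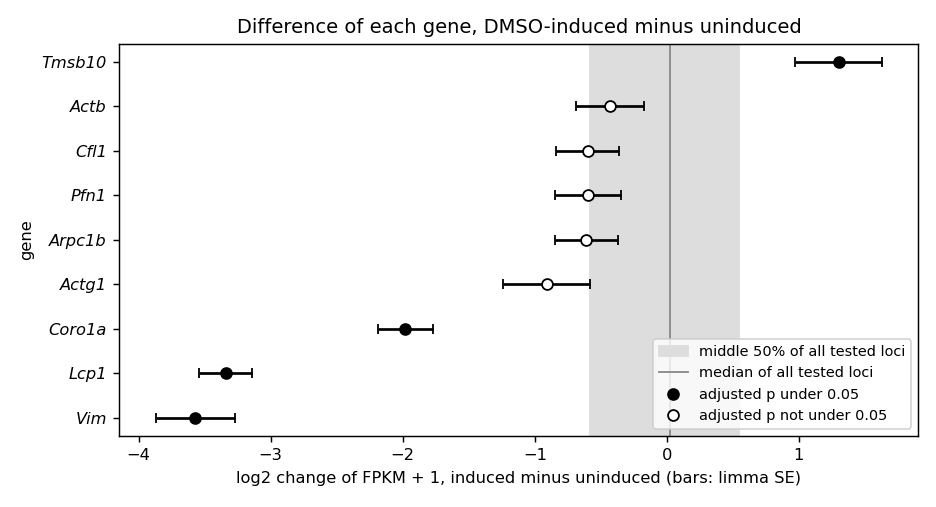
Log2 difference of FPKM + 1 (induced minus uninduced) of the 9 tested genes, with limma standard errors as bars. Filled points passed an adjusted p of 0.05, and the grey band and line give the interquartile range of all 12890 loci and their median of 0.03. Vim, Lcp1 and Coro1a lie far to the left, Tmsb10 to the right, and 5 open points between -0.91 and -0.43.

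The macrophage markers did not all move in the same direction. The 10 markers checked summed to 14.3 and 26.5 FPKM in the uninduced samples and to 2.48 and 1.71 FPKM in the induced ones. Of these 10, 2 reached 1 FPKM in a sample (Cd68 and Fcgr1), both of which fell (limma adjusted p = 0.0273 and 0.02), and these made up most of the sum. Fcgr1 reached 1 FPKM only in uninduced samples, so the filter fixed its direction. The other 8 were at 0.56 FPKM or less and were too low to be tested. Cd14 (0.43 and 0.44 FPKM uninduced, 0 and 0.13 FPKM induced), Lyz2 (0.36 and 0.56, 0.05 and 0.09) and C1qb (0.08 and 0.16, 0 and 0) were lower in both induced samples. Csf1r (0.20 and 0.06, 0.38 and 0.38) and Adgre1 (0 and 0, 0.02 and 0.02) were higher. Itgam and Mpeg1 were at 0.01 FPKM or less, and C1qa was listed at 0 throughout. Of 6 lymphoid markers, only Ptprc reached 1 FPKM, at 7.11 and 2.51 FPKM uninduced and 2.51 and 1.03 FPKM induced, with Ms4a1 at 0. The 6 endothelial markers summed to 2.68 to 3.97 FPKM in every sample, with Cdh5 at 0. Of these, Vwf rose from 1.34 and 1.02 to 2.92 and 3.05 FPKM (limma adjusted p = 0.0386), and Tek was at 1.35 and 1.39 FPKM uninduced and 0.54 and 0.40 FPKM induced (adjusted p = 0.0563). Tek reached 1 FPKM only in uninduced samples, so the filter fixed its direction as well. In bulk samples, fewer cells of a type and less RNA per cell cannot be told apart, and the part of these markers in the differences was not tested.

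As a group the 10 genes, with Tmsb4x counted as listed at 0, took 0.429% and 0.300% of the summed FPKM uninduced, and 0.220% and 0.248% induced. The level of Tmsb4x is not known, so the shares and sums here, and the part of Actb in them, hold only without it. The difference was -0.13 percentage points (exact two-sided permutation p = 0.33) and -0.07 without uninduced 1. With globins and the 10 most abundant loci of each sample left out of the total, the shares were 0.599% and 0.474% uninduced and 0.380% and 0.356% induced. The summed level of the 10 genes was 4528 and 3983 FPKM uninduced and 2739 and 2733 FPKM induced. Actb made up 40.6% and 44.8% of that sum uninduced and 49.0% and 49.4% induced. Most of the sum thus came from genes whose own difference did not pass. Within a sample, Vim came to 9.95% and 6.26% of the summed actins uninduced and to 0.856% and 0.866% induced, so Vim and the actins changed unequally. The log2 ratio differed by -3.20 (exact permutation p = 0.33).

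Related genes of the same role were set against 4 members, each pair chosen after the values were seen. Coro1a exceeded its paralog Coro1b, which is found in many cell types, by 4.63-fold and 3.75-fold uninduced, but came to 0.648 and 0.505 of it induced. The order of this pair thus turned in both induced samples, with Coro1b at 50.4 and 74.2 FPKM uninduced and 90.8 and 138 FPKM induced (log2 difference 0.86, limma adjusted p = 0.0973). Lcp1 exceeded Pls3, the plastin of solid tissues, by 3.64-fold and 5.11-fold uninduced and came to 0.148 and 0.207 of it induced. Pls3 was at 3.58 to 6.74 FPKM in all samples. The alternative Arp2/3 subunits kept their order: Arpc1b to Arpc1a was 3.74 and 3.60 uninduced and 1.52 and 1.59 induced. Cfl1 to Dstn, which encodes the related severing protein destrin, was 14.8 and 21.6 uninduced and 10.3 and 8.07 induced. The groups did not overlap for any of these 4 ratios, each with an exact permutation p of 0.33.

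**Figure D3:**
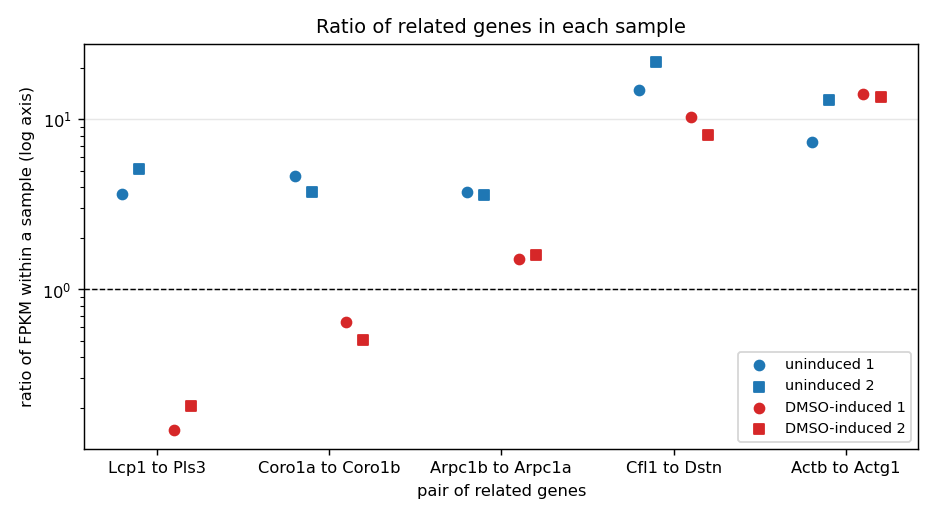
Ratio of FPKM between pairs of related genes within each sample (log axis), blue for uninduced and red for DMSO-induced, with a dashed line at a ratio of 1. Lcp1 to Pls3 and Coro1a to Coro1b lie above 1 in the uninduced samples and below 1 in the induced samples, while the other 3 ratios stay above 1.

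The wider actin machinery went both ways. Lists of genes by role held 95 further genes with a row of their own that were tested, and 14 rose, 13 fell and 68 did not pass. Their median log2 change was 0.06, beside 0.03 over all loci, and 8 genes with shared rows were left out. These called shares, 14 and 13 of 95, are near the 11.5% and 14.7% of all loci. The counts of single lists below stand beside the same shares of all loci. With any 1 of the 4 samples left out, at most 1 rose and 0 fell by limma (12 to 19 higher and 14 to 19 lower at an unadjusted p under 0.05), and without the filter on low values 0 passed (20 higher and 26 lower unadjusted).

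Branch formation by the Arp2/3 complex had 9 subunit genes tested, Arpc1b included. Arpc5 rose from 55.6 ± 7.96 to 109 ± 15.9 FPKM (log2 change 0.96) and Actr3b, a form of the Arp3 subunit, from 5.39 ± 0.33 to 13.8 ± 3.45 FPKM (1.20). No subunit fell by limma, and at an unadjusted p under 0.05 there were 3 higher and 1 lower. Arpc3 had the highest mean, at 301 ± 19.8 and 313 ± 44.7 FPKM. Of 14 tested activators of the complex, 3 rose, which were the WAVE complex subunits Nckap1 (3.23 ± 1.29 to 13.03 ± 4.03 FPKM) and Nckap1l, and cortactin, Cttn, the last named after its values were seen. Nckap1l went from 15.0 ± 0.08 to 28.5 ± 6.53 FPKM, a call near the threshold (limma adjusted p = 0.0493). None fell by limma, with 2 lower at an unadjusted p under 0.05. Brk1, a small WAVE subunit, had the highest mean, 159 ± 8.96 uninduced and 174 ± 34.6 induced.

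Filament elongation genes split. Among 6 formins and Ena/VASP proteins tested, Vasp, an elongation factor at leading edges, fell from 102 ± 13.3 to 34.5 ± 3.37 FPKM (log2 change -1.53 ± 0.20, limma adjusted p = 0.0145). Fmnl1, a formin of white blood cells, fell as well, but reached 1 FPKM only in uninduced samples, so the filter fixed its direction. Fhdc1 rose from 4.72 ± 1.46 to 21.5 ± 4.06 FPKM (1.99 ± 0.28, adjusted p = 0.0154) and Inf2 from 5.33 ± 0.45 to 13.5 ± 0.42 FPKM, as did Daam1, named after its values were seen. All 3 are formins. Of 18 monomer and turnover genes tested, the members Cfl1, Pfn1 and Tmsb10 included, 4 rose and 2 fell. Besides Tmsb10, those that rose were Pfn2 and, named after their values were seen, Twf1 and Cfl2. Pfn2, a second profilin, rose from 1.79 ± 0.90 to 6.29 ± 0.40 FPKM, a level far below Pfn1. Gmfg, a debranching factor of blood cells, fell from 11.6 ± 3.63 to 1.48 ± 0.32 FPKM and Twf2, a monomer-binding twinfilin, from 53.9 to 30.2 FPKM on average.

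Bundling and crosslinking genes had 5 of 12 tested that fell, Lcp1 among them, and none that rose by limma (1 higher at an unadjusted p under 0.05). Over all loci tested, 14.7% were called lower and 11.5% higher. The list median was -0.42. Tagln2, an actin-binding transgelin, fell from 143 ± 33.2 to 46.7 ± 10.7 FPKM (log2 change -1.60 ± 0.27, adjusted p = 0.0202). The others were the filamins Flna and Flnc and the membrane linker Msn, named after their values were seen, with Flnc by the higher of its 2 rows. Flnc was at 1.09 and 1.06 FPKM uninduced and 0.17 and 0.14 FPKM induced. It met the filter only through uninduced samples and so could only be called lower. Of 5 coronins tested, Coro1a and Coro2a fell and none rose by limma, with 1 higher at an unadjusted p under 0.05.

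Of 8 tested genes that cap or sever filaments, 2 rose, 1 fell and 5 did not pass. Capg, a capping protein of macrophages, fell from 305 ± 35.2 to 89.3 ± 11.1 FPKM (log2 change -1.76 ± 0.21, limma adjusted p = 0.013). Tmod1, the tropomodulin that caps the short filaments of the red cell skeleton, rose from 4.78 ± 0.88 to 35.2 ± 11.5 FPKM (2.62 ± 0.30, adjusted p = 0.0128). Gsn, gelsolin, rose from 12.8 ± 7.5 to 70.9 ± 29.3 FPKM. Among 7 tropomyosin and myosin genes tested, Myo1g, a class I myosin of blood cells, fell from 6.85 ± 1.53 to 0.93 ± 0.22 FPKM. Myl6, a myosin light chain, had the highest mean and both induced values above both uninduced ones, at 381 ± 63.4 and 678 ± 26.2 FPKM, but did not pass (limma adjusted p = 0.0566).

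**Figure D4:**
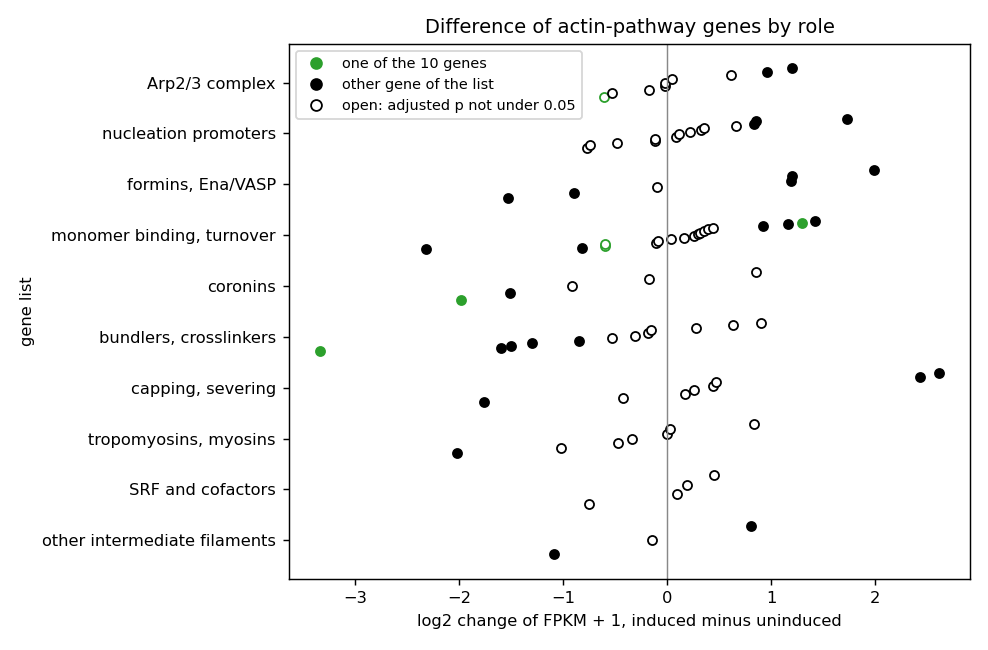
Log2 difference of FPKM + 1 (induced minus uninduced) of each tested gene in lists of actin-pathway genes by role, filled where the adjusted p was under 0.05 and green for members of the set. The green points of Lcp1 (-3.34) and Coro1a (-1.98) lie at the low end of their lists. Filled points lie on both sides of 0 for formins and Ena/VASP, monomer and turnover genes, capping genes and other intermediate filaments.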

How the data were processed

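RNA was measured in 2 uninduced and 2 DMSO-induced samples. Per the labels' protocols, ribosomal RNA was depleted from Trizol-extracted RNA. TopHat2 and GRCm38 were used, per the submitters' processing notes; tool versions, the quantifier, strandedness and the annotation are not stated in the sources. The values deposited by the authors are FPKM, a unit inferred from Cufflinks-type columns per the file headers and from values that are not whole. The table holds no counts, so no count model was used. Positions printed are from GENCODE M21.

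Loci that reached 1 FPKM in 2 or more samples were fitted as log2(FPKM + 1) in limma 3.58.1 (R 4.3.3, lmFit, eBayes with trend) with group as the only term. Benjamini-Hochberg adjustment was over all 12890 loci at 0.05. The fit was also run on simulated data with normal noise drawn from limma's own spreads. That run cannot show how the fit behaves on these samples, and no result here rests on it. Ratios and shares used exact two-sided permutation tests over 6 arrangements. Rows with several symbols were left out of list counts.

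Genes named outside the set were the highest-mean gene of each list and its most changed called genes, at most 2 in each direction; others are marked. The members and lists were chosen with earlier results of these data known. Alternatives were 3 scalings, 2 filters, another pseudocount, no trend, a replicate block, leaving out each sample and removing loci listed at 0. A few genes of the lists were not analysed here, and 1 list, counted in the total of further genes, is not reported here.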

Additional observations from a re-analysis of the deposited data

How the results depend on the processing

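Over 13 alternatives, the log2 changes of the 9 tested genes kept their signs. The number of calls did not hold up. Without the filter on low values, 26323 loci were tested, and 0 genes of the set passed in limma (1 higher and 3 lower at an unadjusted p under 0.05), as did 0 higher and 0 lower of the further lists (20 and 26 unadjusted), and 7 higher and 23 lower of all loci. The count of risen members went from 1 to 0 under median-of-ratios scaling and with a pseudocount of 0.1, where the unadjusted p stayed under 0.05. With 1 sample left out, 0 members rose and 0 to 2 fell (0 to 1 and 3 to 4 unadjusted), 0 to 1 of the further lists rose and 0 fell (12 to 19 and 14 to 19 unadjusted), and 0 to 180 of all loci rose and 14 to 306 fell. A group with 1 sample left is then assumed to vary like the other. The log2 ratio of monomer-binding genes to actins ran from -0.19 to 0.0089 (reversed without uninduced 1), that of Actb to Actg1 from 0.08 to 0.91, that of Vim to the actins from -3.53 to -2.86, and the share of the table from -0.19 to -0.07 percentage points. Replicate numbers are not stated to mark a batch; the deviations of same-numbered samples correlated at 0.17 over loci. With a replicate block 1939 loci rose and 2299 fell, and the same number of members, 1 and 3, was called. The ratio of Tmsb4x to Tmsb10 could not be computed. Other settings changed no count by more than 1.5 times. The depth is unknown, so no counting interval could be given for low values such as those of Lcp1 after induction.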
